A study of Homo sapiens with 20 samples.

Results

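CTCF sites gained upon STAG2 knockdown (KD) were places in the genome of M14 cells that had a CTCF ChIP-seq peak in both STAG2-KD libraries and in neither WT library. The members were chosen by this rule alone, from peak lists merged into union sites on chromosomes 1 to 22 and X. The 4 CTCF lists gave 135421 union sites, of which 1530 were gained. This is 1.13% of the union sites. The opposite combination, with peaks in both WT lists but none in STAG2-KD, was found at 2418 sites (1.79%), called lost here. A peak in all 4 lists was found at 69505 sites, called retained.

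M14 is an established human melanoma line, and the cells carried a doxycycline-inducible shRNA against STAG2. Cells of the STAG2-KD group had doxycycline for 5 days and cells of the WT group had none, although the labels state the treatment only for the first of the 2 sets of libraries. WT therefore means uninduced cells that carry the same shRNA, and every library comes from this single line. CTCF, STAG1, STAG2 and SMC1A were each precipitated in 2 WT and 2 STAG2-KD libraries, which gives 16 peak lists. The replicates were prepared by different protocols, and nothing in the labels says that they were separate cultures, so the spread between them may be technical.

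CTCF is a zinc finger protein that binds a long, partly degenerate DNA motif. Cohesin, a ring of SMC1A, SMC3 and RAD21 with either STAG1 or STAG2, extrudes chromatin loops and tends to stop where CTCF is bound, so strong CTCF sites usually carry cohesin as well. STAG1 and STAG2 are alternative subunits of the ring, and SMC1A is part of every ring whichever of them it holds.

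The sequences below come from 8 of the strongest members with a match to the CTCF motif, and show the best match at each. Strength was the mean over both STAG2-KD lists of the percentile of −log10 p within the list. The match is in capitals, with up to 20 bases on each side, read 5′ to 3′ on the strand of the match from the GRCh37 reference. The motif was a matrix of 20 positions learned from retained sites, and its most frequent bases read TTGGCCACCAGGGGGCGCTA. The names give the nearest protein-coding gene start.
IP6K3, chr6:33700829-33700888, minus strand: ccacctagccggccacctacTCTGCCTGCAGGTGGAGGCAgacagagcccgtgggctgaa
PCED1B, chr12:47428841-47428900, plus strand: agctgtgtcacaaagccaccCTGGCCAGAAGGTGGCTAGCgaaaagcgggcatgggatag
STX18, chr4:4633531-4633590, plus strand: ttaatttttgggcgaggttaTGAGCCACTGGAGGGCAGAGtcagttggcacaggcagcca
NRP2, chr2:206724111-206724170, plus strand: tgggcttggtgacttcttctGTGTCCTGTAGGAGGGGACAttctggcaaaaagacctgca
ADGRL2, chr1:82706313-82706363, plus strand: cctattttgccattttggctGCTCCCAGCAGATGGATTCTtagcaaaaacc
HLA-F, chr6:29688814-29688873, minus strand: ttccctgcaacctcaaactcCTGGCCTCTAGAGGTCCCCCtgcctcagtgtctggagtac
GTSF1L, chr20:42380101-42380160, plus strand: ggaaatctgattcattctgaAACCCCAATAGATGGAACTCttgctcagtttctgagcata
CPEB2, chr4:15163337-15163396, minus strand: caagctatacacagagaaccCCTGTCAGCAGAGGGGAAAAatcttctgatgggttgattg
These 8 matches shared between 8 and 12 of the 20 bases with the most frequent bases of the matrix. Over all matches the median was 12 bases at gained, lost and retained sites alike, with an interquartile range of 11 to 13. The site near IP6K3 scored highest among them, at 16.8 bits, and the site near NRP2 scored lowest, at 10.1 bits, just above the threshold of 9.87 bits.

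Few of the sites that looked gained in a single replicate were gained in both. In replicate 1, 10721 union sites had a CTCF peak in STAG2-KD and none in WT. At 8456 of them (78.9%) the replicate 2 lists held a peak in both conditions, and only 1530 (14.3%) had the same gain there. In replicate 2, 13924 union sites had a peak in STAG2-KD and none in WT. At 12252 of them (88.0%) replicate 1 listed no CTCF peak in either condition, and 1530 (11.0%) were gained in both. The CTCF lists held 86248 WT and 88575 STAG2-KD peaks in replicate 1, and 122299 and 115435 in replicate 2. A site gained in 1 replicate was thus most often listed in both conditions by the longer lists of replicate 2, or in neither by the shorter lists of replicate 1.

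**Figure D1:**
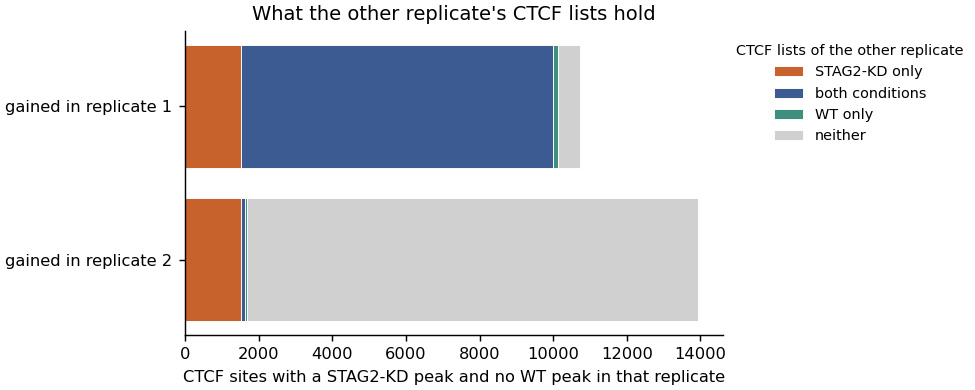
Number of union CTCF sites (x axis) with a STAG2-KD peak and no WT peak in replicate 1 (upper bar) or replicate 2 (lower bar), divided by what the CTCF lists of the other replicate hold there. The 1530 members are the orange segment of both bars, against 8456 sites listed in both conditions by replicate 2 in the upper bar and 12252 listed in neither by replicate 1 in the lower bar.

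The gained sites were weak CTCF sites. Their median strength percentile was 8.32 in the STAG2-KD list of replicate 1 and 24.9 in that of replicate 2, and their highest was 47.5 and 58.6. Retained sites had medians of 59.4 and 69.8 in the same lists. Fold enrichment at the summit is the ratio of tags to expected background that the peak caller gives, with 1 added to both. Its median at gained sites was 4.59 in replicate 1 and 3.88 in replicate 2. At retained sites the medians were 22.1 and 19.8. These values come from the lists that chose the members and are a description.

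The number of tags behind a gained site was small. Summit tags were solved from the fold and the p-value of each peak where −log10 p was under 20. In replicate 1 the 1453 members with a single solution had a median of 9 tags, with an interquartile range of 8 to 10, where 1.06 were expected from the background. In replicate 2 the 1485 members had a median of 14 tags, with an interquartile range of 11 to 17, where 2.35 were expected. Among peaks with a single solution, the WT lists reached down to peaks of 6 tags in both replicates. The tags that WT libraries had at these sites were not listed, so a site that fell a few tags short in WT counts as absent. Recovered depth was 20.2 M reads in WT and 21.6 M in STAG2-KD in replicate 1, and 37.4 M and 38.5 M in replicate 2, a ratio of 1.07 and 1.03.

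Values on either side of the limit show how narrow the rule is. The members with the lowest −log10 p had 2.13 to 2.46 in the STAG2-KD list of replicate 2, and 4.81 to 8.27 in replicate 1. The sites just outside had a single WT peak, of −log10 p between 2.01 and 2.05 in replicate 2, with STAG2-KD values of 5.60 to 8.25 in replicate 1 and 6.18 to 7.18 in replicate 2. Over all sites with a peak in both STAG2-KD lists, 8456 had a WT peak in replicate 2 only and 86 in replicate 1 only.

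The summits of a member in the STAG2-KD lists lay a median of 42 bp apart, and 929 of 1530 (60.7%) lay within 50 bp. Across members, −log10 p in the STAG2-KD lists of replicates 1 and 2 had a Spearman correlation of 0.404 (n = 1530 sites). The points share both libraries.

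**Figure D2:**
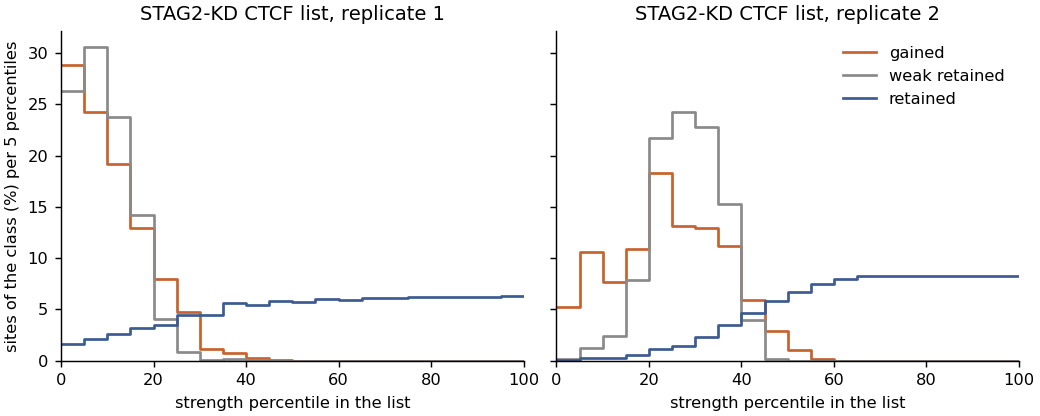
Share of the sites of a class (y axis, percent per bin of 5 percentiles) by strength percentile in the STAG2-KD CTCF list (x axis), for replicate 1 (left) and replicate 2 (right). Gained sites (orange) sit at the weak end of both lists, with medians of 8.32 and 24.9, and retained sites (blue) spread over the rest. Weak retained sites (grey) are the retained sites chosen to be of similar strength.

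To compare members with sites of similar strength in STAG2-KD, weak retained sites were defined as retained sites whose mean percentile in both STAG2-KD lists lay within the interquartile range of the members, 11.6 to 23.5. There were 2974 of them. In the STAG2-KD lists of replicates 1 and 2 their CTCF peaks had median widths of 152 and 385 bp, against 140 and 291 bp at members. Their median fold in STAG2-KD was 4.59 in replicate 1 and 4.14 in replicate 2, and in WT it was 5.38 and 5.30. The match in strength thus holds for STAG2-KD only, since members have no WT peak by the rule, and in replicate 2 it is partial, with a median percentile of 28.6 at weak retained sites and 24.9 at members.

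The next question was whether cohesin appeared at the gained sites. Cohesin was sparse there. No STAG1, STAG2 or SMC1A peak overlapped by 1 bp or more in any of the 12 lists at 608 of 1530 gained sites (39.7%), against 901 of 2974 weak retained sites (30.3%), 1379 of 2418 lost sites (57.0%) and 3878 of 69505 retained sites (5.58%). A gained site had a peak in a median of 1 of the 12 cohesin lists, a weak retained site in 3 and a retained site in 12. Cohesin peaks in STAG2-KD lists only were found at 293 gained sites (19.2%) and in WT lists only at 47 (3.07%). Over all union sites these shares were 5.61% and 5.06%, and at weak retained sites 7.06% and 9.48%. At lost sites the order was opposite to that at gained sites, with 88 (3.64%) in STAG2-KD only and 295 (12.2%) in WT only.

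STAG1, the alternative to STAG2 in the ring, had a peak at 4.18% of gained sites in the WT library of replicate 1 and at 23.7% in its STAG2-KD library. The replicate 2 values were 26.3% in WT and 32.2% in STAG2-KD. The share was higher in STAG2-KD in both replicates, but the WT value of replicate 2 lay above the STAG2-KD value of replicate 1. The mean difference, STAG2-KD minus WT, was 12.7 percentage points ± 9.61 (SD, n = 2), with p = 0.667 by the two-sided exact permutation test over libraries. With 2 libraries against 2 the smallest p this test can give is 0.333, so no such difference can pass 0.05. The same difference was 7.28 points at weak retained sites and 0.352 at lost sites.

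SMC1A, the subunit common to all rings, had a peak at 11.7% of gained sites in the WT library of replicate 1 and at 20.2% in its STAG2-KD library. The replicate 2 values were 25.4% in WT and 44.1% in STAG2-KD. The share was again higher in STAG2-KD in both replicates, with overlap of the groups across replicates. The mean difference was 13.6 points ± 7.16 (SD, n = 2), exact permutation p = 0.667. At weak retained sites it was 0.403 points and at lost sites -3.06 points.

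STAG2, the target of the shRNA, had a peak at 9.08% of gained sites in the WT library of replicate 1 and at 7.32% in its STAG2-KD library. The replicate 2 values were 23.0% in WT and 28.6% in STAG2-KD. The direction differed between replicates. The mean difference was 1.90 points ± 5.18 (SD, n = 2), exact permutation p = 1.00. At weak retained sites the STAG2 share was lower in STAG2-KD in both replicates, by a mean of -11.6 points, and at lost sites likewise, by -10.6 points.

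Cohesin peaks are often wider than a CTCF peak and can reach a member from a neighbouring site. When only cohesin peaks with their summit inside the member were counted, a criterion chosen after the values were seen, STAG1 was at 3.27% and 19.2% of gained sites in WT and at 20.6% and 24.1% in STAG2-KD. SMC1A was at 7.12% and 14% in WT and at 15.5% and 28.4% in STAG2-KD. The groups no longer overlapped for either antibody. The mean differences were 11.1 points ± 8.83 for STAG1 and 11.4 points ± 4.30 for SMC1A (SD, n = 2, exact permutation p = 0.333 for both, the smallest possible). For STAG2 the groups still overlapped, with 6.21% and 14.4% in WT and 5.29% and 19.1% in STAG2-KD.

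The size of the STAG1 difference depended on the length of the lists. STAG1 lists held 63479 WT and 85527 STAG2-KD peaks in replicate 1. With equal numbers of the strongest peaks in the WT and STAG2-KD list of each replicate, a criterion also chosen after the values were seen, the mean STAG1 difference at gained sites was 5.59 points, the SMC1A difference 12.4 points and the STAG2 difference 6.24 points. Each of the 3 was then positive in both replicates. For STAG2 it was the WT lists that were shortened, from 79048 to 58418 peaks in replicate 1 and from 118984 to 106135 in replicate 2. With the full lists, the STAG2 share in replicate 1 was lower in STAG2-KD (7.32%) than in WT (9.08%). Equal numbers also take out any change in the number of peaks that the knockdown itself made. The libraries of an antibody were called against the same input as the CTCF libraries of that condition and replicate, so the cohesin lists are not fully independent of the choice of members, and the part of the input in these differences was not tested.

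**Figure D3:**
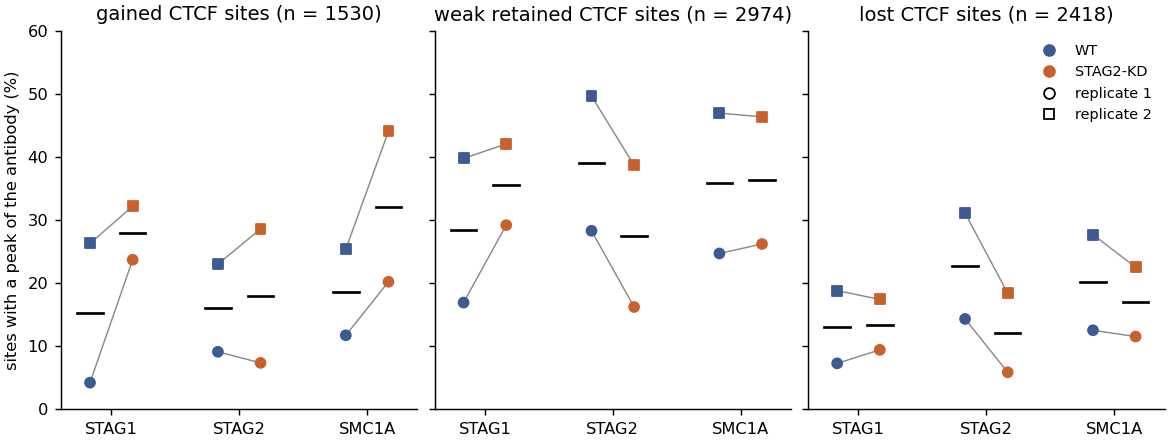
Percentage of sites with a STAG1, STAG2 or SMC1A peak (y axis) at gained, weak retained and lost CTCF sites, in WT (blue) and STAG2-KD (orange) libraries. Each point is 1 library (circle replicate 1, square replicate 2), lines join libraries of a replicate and bars are means. At gained sites STAG1 and SMC1A lie higher in STAG2-KD in both replicates, and STAG2 lies lower in replicate 1 and higher in replicate 2.

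Appearance of a cohesin peak in both replicates was uncommon at gained sites. STAG1 was in both STAG2-KD lists and in neither WT list at 77 of 1530 (5.03%), beside 1.88% of all union sites and 2.86% of weak retained sites. The opposite change of STAG1 was found at 2 gained sites (0.131%), beside 0.357% of all union sites. SMC1A appeared in both replicates at 62 (4.05%), beside 1.12% of all union sites and 1.34% of weak retained sites, and disappeared at 7 (0.458%), beside 0.487%. STAG2 appeared at 7 (0.458%), beside 0.119%, and disappeared at 5 (0.327%), beside 1.37% of all union sites and 2.79% of weak retained sites. The share of members with a new STAG1 or SMC1A peak was thus above that of all union sites, and the share with a lost STAG2 peak was below it. In the WT lists of replicates 1 and 2, STAG2 was at 9.08% and 23.0% of members, beside 45.7% and 62.2% of all union sites. STAG1 and SMC1A were also rarer at members than at all union sites in the WT lists. Lost sites were low in WT as well, with STAG1 at 7.24% and 18.8% and STAG2 at 14.3% and 31.1%. Among lost sites STAG1 appeared in both replicates at 0.993%, and STAG2 disappeared at 3.18%. The part of the WT shares in these changes was not tested. Most members changed in neither sense, and 932 (60.9%) had no STAG1 peak in any of its 4 lists. That share was 35.1% of all union sites, 51.4% of weak retained sites and 76.8% of lost sites.

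In the STAG2-KD libraries, where CTCF strength was similar, cohesin shares were lower at gained than at weak retained sites. The difference was -5.49 points in replicate 1 and -9.84 in replicate 2 for STAG1, -8.85 and -10.1 for STAG2, and -5.96 and -2.32 for SMC1A. In WT, where weak retained sites have a CTCF peak and gained sites have none, it was -12.8 and -13.5 points for STAG1 and -13.0 and -21.6 for SMC1A. Over all 4 libraries, which joins these unlike comparisons, the mean STAG1 difference was -10.4 points ± 3.63 (SD, n = 4 libraries). For STAG2 it was -16.2 points ± 8.36 and for SMC1A -10.7 points ± 8.50. All 4 libraries of each antibody had the same direction, and the two-sided exact sign-flip permutation test gave p = 0.125 for each antibody, the smallest it can give with 4 libraries. This p is not a test at equal CTCF strength or width. Weak retained sites had wider CTCF peaks and also merge WT peaks, so they can meet more cohesin peaks. The part of width in these differences was not tested. Against lost sites, the mean difference was 8.40 points for STAG1, 6.79 for SMC1A and -0.428 for STAG2, with no single direction over the 4 libraries (exact sign-flip p = 0.250 to 1.00).

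None of the 10 strongest members lay at the promoter of a protein-coding gene. The strongest was in an intron of CSMD1, a large gene of a complement-regulating membrane protein, at chr8:3635855-3636410 (GRCh37), with a CTCF fold of 13.8 in replicate 1 and 12.1 in replicate 2. Another member in an intron of CSMD1, at chr8:3554750-3555487, had folds of 11.2 and 12.4. STAG1 was present at both CSMD1 members in both STAG2-KD lists and in the WT list of replicate 2. At the first, the STAG1 fold in replicate 2 was 4.13 in WT and 3.25 in STAG2-KD, and it was 6.46 in STAG2-KD of replicate 1. At the second, the STAG1 fold in replicate 2 was 2.96 in WT and 5.63 in STAG2-KD, and it was 7.89 in STAG2-KD of replicate 1. The order of WT and STAG2-KD in replicate 2 thus differed between these members. At the second, SMC1A was listed only in STAG2-KD, with folds of 4.24 and 6.05.

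The third was intergenic, 245 kb from the start of AKR1E2, with CTCF folds of 9.41 and 10.4. It had cohesin peaks in 8 of the 12 lists, with all 3 antibodies present in both conditions of replicate 2. Its STAG1 fold in replicate 2 was 7.29 in WT and 4.77 in STAG2-KD. The member in an intron of IP6K3, an inositol hexakisphosphate kinase, had folds of 11.2 and 8.60 and SMC1A in both STAG2-KD lists alone, with folds of 4.71 and 5.50. A member inside KCNMB2, a potassium channel subunit, lay at the promoter of a non-coding gene and had folds of 8.87 and 7.17. Its STAG1 peak in the WT list of replicate 2 had a fold of 28.3 but was 2101 bp wide, with the summit outside the member.

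The intergenic member 44487 bp from the start of PCED1B had CTCF folds of 9.90 and 6.63. SMC1A had no WT peak there in replicate 1 and a fold of 9.47 in STAG2-KD, and in replicate 2 its fold was 2.99 in WT and 8.24 in STAG2-KD. The remaining 4 of the 10 strongest lay in DCAF5, 89514 bp from the start of STX18, 95084 bp from that of NRP2 and 399225 bp from that of DMRT2, with CTCF folds of 7.65 to 8.67 in replicate 1 and 7.76 to 8.60 in replicate 2. The member in DCAF5 had STAG1 and SMC1A in both STAG2-KD lists, and its STAG1 fold in replicate 2 was 4.77 in WT and 2.85 in STAG2-KD. Those nearest STX18 and NRP2 had SMC1A in the STAG2-KD list of replicate 2 alone, and the one nearest STX18 had STAG1 in the WT list of replicate 2, at a fold of 3.35, and in no STAG2-KD list.

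The fullest appearance of cohesin, STAG1 and SMC1A in both STAG2-KD lists with no STAG1, STAG2 or SMC1A peak in any WT list, was found at 4 members (0.261%), beside 63 of all union sites (0.0465%). Of these, 3 are described here. The member at chr2:141452664-141453259, in an intron of LRP1B, a large lipoprotein receptor, had STAG1 folds of 7.39 and 3.69 and SMC1A folds of 5.65 and 3.90 in STAG2-KD. It also had STAG2 in both STAG2-KD lists, with folds of 3.77 and 3.89. Another was in an intron of CBFA2T3, a transcriptional corepressor, and another in an intron of DVL1, a mediator of Wnt signalling. At the members in CBFA2T3 and DVL1, STAG1 folds lay between 3.03 and 4.30 and SMC1A folds between 3.30 and 4.24. The members in LRP1B, CBFA2T3 and DVL1 each had a match to the CTCF matrix, which does not speak for the member not described here. In replicate 2 the STAG1 and SMC1A summits at DVL1 lay outside the member.

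Strong members without any cohesin peak were as strong in CTCF as several of those with it. The strongest was 1666 bp from a start of HLA-F, a non-classical MHC class I gene, at chr6:29688750-29689021, with CTCF folds of 7.65 and 7.96. The others lay in FBXW11 and PPP1R16A, 29847 bp from the start of CRNN, 124011 bp from that of RUNX3 and 456939 bp from that of TMEM132C, with folds of 7.28 to 8.25 in replicate 1 and 5.59 to 7.99 in replicate 2. Over all 608 members without cohesin, the median mean percentile was 14.6, against 18.7 over the 922 members with at least 1 cohesin list.

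**Figure D4:**
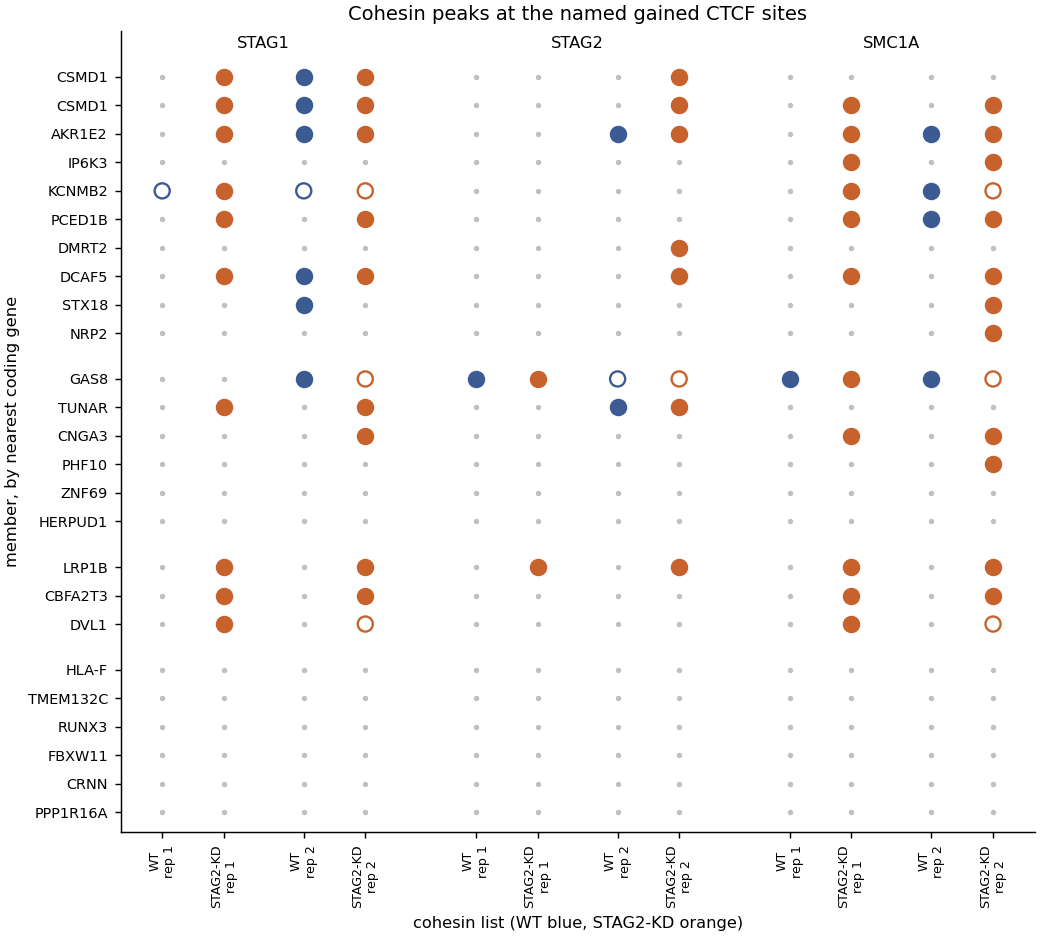
Cohesin peaks at the 10 strongest members, the 6 strongest at coding promoters, 3 of the 4 with STAG1 and SMC1A in both STAG2-KD lists and no cohesin in WT, and the 6 strongest without cohesin (rows, from the top, by nearest coding gene, and by the gene it lies in for KCNMB2). Columns are the 12 cohesin lists. A filled circle is a peak with its summit inside the member, an open circle a peak that only reaches it, and a dot no peak. Orange circles (STAG2-KD) outnumber blue circles (WT) in the upper block.

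By place, 358 gained sites (23.4%) lay within 1 kb of an annotated transcript start, 69 (4.51%) in exons, 681 (44.5%) in introns and 422 (27.6%) in intergenic DNA. Promoters held 29.5% of weak retained sites, 22.7% of lost sites and 21.4% of all union sites. These shares were not tested against each other, and the promoter share of gained sites was 14.1% with a −log10 q of at least 5 in both STAG2-KD lists and 16.7% with no WT peak within 1 kb. Per chromosome, gained sites made up 0.787% (X) to 1.56% (17) of union sites.

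Gained sites lay close to other CTCF sites. The median distance to the nearest retained site was 7.37 kb, against 10.5 kb for lost sites, and for weak retained sites 9.97 kb to another retained site. Within 5 kb of a retained site lay 635 members (41.5%), against 30.0% of lost and 30.9% of weak retained sites. A WT CTCF peak was listed within 1 kb of 383 members. Of these, 167 (43.6%) were promoter sites, while of the 1147 members with no such neighbour 191 (16.7%) were.

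Promoter members carried more cohesin than the others. In replicate 1, SMC1A was at 33.8% of promoter members in the WT library and 41.6% in STAG2-KD, against 4.95% and 13.7% of the other members. Its replicate 2 shares were 55.9% and 68.7% of promoter members, against 16.1% and 36.5% of the others. STAG1 shares of promoter members were 8.38% in WT and 31.6% in STAG2-KD of replicate 1, against 37.4% and 45.3% for replicate 2. Higher shares of both in STAG2-KD than in WT, replicate by replicate, were present among members with and without a WT CTCF peak within 1 kb. Without such a neighbour, STAG1 was at 3.49% in WT and 22.7% in STAG2-KD for replicate 1, with 24.0% and 29.6% for replicate 2. SMC1A was there at 7.32% and 15.4%, with 18.5% and 38.2% for replicate 2.

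The strongest members at promoters of protein-coding genes were those of GAS8, TUNAR, CNGA3, PHF10, ZNF69 and HERPUD1, of 270 such members. CTCF folds were 5.61 to 6.63 in replicate 1 and 4.48 to 6.35 in replicate 2. The member 846 bp from the start of GAS8, a component of motile cilia, had cohesin in 10 of 12 lists, WT included. The member at CNGA3, a cyclic nucleotide-gated channel of cone photoreceptors, had cohesin in STAG2-KD only, in 3 lists. Those at ZNF69 and at HERPUD1, a gene of the unfolded protein response, had none.

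In the share with a CTCF motif, gained sites lay near weak retained and lost sites and below retained sites. A match to the CTCF matrix within 100 bp of the summit was found at 502 of 1530 gained sites (32.8%). The share was 35.7% at weak retained, 33.7% at lost and 63.8% at retained sites, and 5.42% in windows 5 kb away from gained sites. The threshold was set so that 5.00% of windows 5 kb from retained sites passed. A match to the CTCF core alone, on either strand, was found at 107 gained sites (6.99%), against 0.752% of windows 5 kb away. Matches at gained sites lay a median of 31.5 bp from the summit, and those at retained sites 19.5 bp. CTCF matches were thus more frequent at gained sites than in the sequence around them, but most gained sites had no match at this threshold.

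Members with a match had a lower share with a peak than members without one in all 12 cohesin lists. In the STAG2-KD list of replicate 2, SMC1A was at 39.2% of the 502 members with a match and 46.4% of the 1028 without, and STAG2 was at 19.7% and 32.9%. Promoter members had a match in 21.2% of cases and other members in 36.3%. Median GC content around the summit was 51.7% at gained sites, against 53.0% at weak retained, 51.7% at lost and 49.3% at retained sites, and 45.3% in windows 5 kb from gained sites.

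Of the short motifs searched on both strands, AP-1 (TGANTCA, bound by FOS and JUN family dimers) was the most frequent at gained sites. It was found at 143 gained sites (9.35%), against 5.82% of windows 5 kb away, 6.72% of weak retained, 4.59% of lost and 5.71% of retained sites. It was more frequent at members without a WT CTCF peak within 1 kb (10.5%) than at those with one (5.74%), and at members with any cohesin list (11.0%) than without (6.91%). ETS (CCGGAAG) was at 2.09% of gained sites and 0.621% of windows 5 kb away, with 2.25% at weak retained sites. The E-box (CACGTG) was at 2.94%, the M-box of the melanocyte factor MITF (TCATGTG) also at 2.94%, and the interferon-response motif (GAAANNGAA) at 5.23%, against 2.25%, 2.94% and 6.37% of windows 5 kb away. None of these shares was tested.

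**Figure D5:**
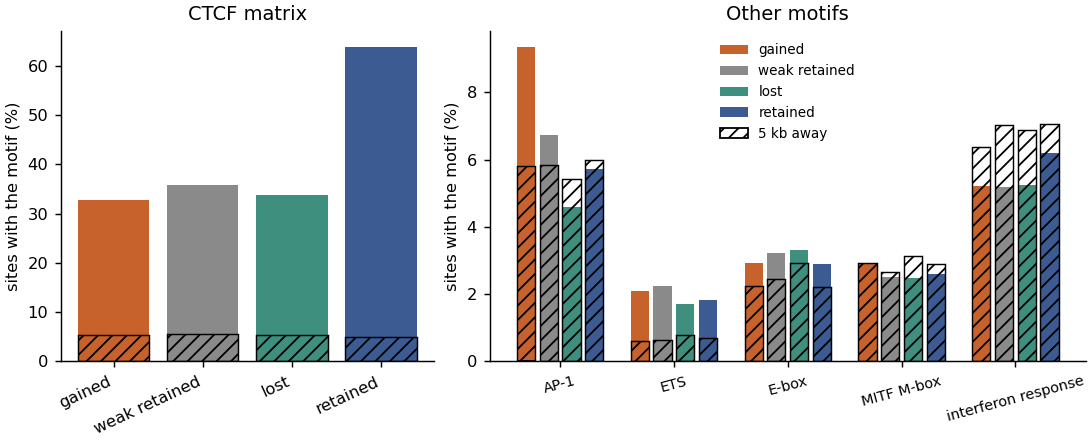
Percentage of sites with a CTCF matrix match (left) or a short motif (right, y axes in percent) within 100 bp of the summit at gained, weak retained, lost and retained CTCF sites, with the same in windows 5 kb away hatched. Gained sites had a CTCF match at 32.8%, near weak retained and lost sites and below retained sites, and had AP-1 at 9.35%.

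Of 20098 protein-coding genes, 1233 (6.13%) had a gained site within 10 kb of the gene. In the HOX clusters, which hold developmental transcription factor genes, 7 of 39 genes did (17.9%), but these came from a member at the promoter of HOXD11 and another between HOXA7 and its neighbours, since HOX genes lie side by side. The HOXD11 member had CTCF folds of 5.34 and 4.46 and SMC1A in replicate 2, at a fold of 2.15 in WT and 3.85 in STAG2-KD. Among C2H2 zinc finger genes 11 of 476 (2.31%) had a member within 10 kb, and among olfactory receptors 1 of 414 (0.242%). No clustered protocadherin gene of 53, no imprinted gene of 16 and no gene of the cohesin and CTCF machinery of 21 had one.

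In the lists related to melanoma, 2 of 22 melanocyte lineage genes had a member (9.09%), beside 6.13% of all protein-coding genes. They were SLC45A2, a melanosomal transporter, and TRPM1, a melanocyte cation channel. The SLC45A2 member lay in an exon, with CTCF folds of 5.61 and 4.78 and SMC1A in replicate 2 in both conditions. Among MAPK feedback and ERK target genes 2 of 18 had a member (11.1%), FOSL1 and MYC. FOSL1 was also the only one of 18 genes of the dedifferentiated melanoma state (5.56%). These shares rest on few genes and were not tested. The member near FOSL1, an AP-1 subunit, lay at the promoter of FIBP with folds of 5.29 and 4.53. The member in an exon of MYC had CTCF folds of 3.86 and 3.76. In replicate 2 it lay under STAG1 peaks with a fold of 36.6 in WT and 40.4 in STAG2-KD that were 8747 and 11157 bp wide, with their summits elsewhere. The STAG1 peaks that reach it in replicate 1 also had their summits outside, so no STAG1 fold belongs to the member itself.

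Among melanoma drivers and tumour suppressors 2 of 26 genes had a member (7.69%). STK11, a kinase gene, had it at its promoter, with CTCF folds of 5.61 and 3.82. Of type I interferon signalling genes 1 of 13 had a member (7.69%), JAK1, a kinase of the interferon receptor. The member lay 54 bp from a start of JAK1, with CTCF folds of 5.55 and 3.84 and SMC1A in both STAG2-KD lists and in neither WT list, at folds of 4.19 and 2.81. Of interferon-stimulated genes 1 of 38 did (2.63%), XAF1, at a member with a −log10 q of only 1.29 in replicate 2. Of antigen presentation and checkpoint genes 1 of 18 did (5.56%), HLA-F. Over all protein-coding genes the share was 6.13%, and these shares of 1 or 2 genes each were not tested. Members near HOXD11, HOXA7, FOSL1, MYC, TRPM1, STK11, JAK1 and XAF1 had no match to the CTCF matrix. Those near SLC45A2 and HLA-F had a match.

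Genes on which the study centres were looked up after the values were seen. The gained site nearest IRF9, the DNA-binding subunit of the interferon-activated ISGF3 complex, was 47.1 kb from the gene, with CTCF folds of 3.84 and 3.75, and a lost site lay 6.55 kb from it. The gained site nearest DUSP6, a phosphatase of ERK, was 11.0 kb away, in an intron, with folds of 5.25 and 4.58 and no cohesin in any list. The nearest gained site to CD274, which encodes PD-L1, was 1417 kb away.

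Members were mostly scattered. Within 10 kb of another member lay 52 of 1530 (3.40%), against 3.53% of weak retained and 5.21% of lost sites, classes of 2974 and 2418 sites, and such shares depend on the size of the class. The median distance to the next member was 433 kb. The densest place was RAP1GAP2, a gene of a Rap1 GTPase-activating protein on chromosome 17, with 5 members in 71672 bp among 16 union sites. Their CTCF folds were 3.86 to 5.05 in replicate 1 and 3.50 to 4.74 in replicate 2. All 5 had SMC1A in the STAG2-KD list of replicate 2, as did 44.1% of all members. The member at chr17:2756506-2756898 also had SMC1A in both WT lists, at folds of 5.02 and 4.30. It alone had SMC1A in the STAG2-KD list of replicate 1. The second was a stretch of chromosome 22 with TBC1D22A as the nearest coding gene, with 4 members in 62106 bp that lie between genes or in LINC01644, and the third held 3 members near UBE2J2 and DVL1 on chromosome 1.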

How the data were processed

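ChIP-seq peak lists of M14 cells were used as the authors deposited them, 1 list per library with MACS2 peaks called against input. The deposited columns hold a score, a fold enrichment (a ratio of pileup to background, with 1 added to both), and −log10 p and −log10 q values. The methods of the study name bowtie2 and hg19, while the submitters' processing notes mention Bowtie2 for replicate 1 and CASAVA 1.4 and BWA for replicate 2. Lists of replicate 1 end at a −log10 q of 2.00, those of replicate 2 at a −log10 p near 2.01, so list lengths differ between replicates. No expression or read data were used.

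The members and gene lists were chosen with earlier results of these data known. Peaks sharing 1 bp were merged, on chromosomes 1 to 22 and X. Depth assumes a 2.7 Gb genome and takes the narrowest peak width as read extension, and recovered tags count as whole within 0.02. At the lowest background, 100% of pileups were whole. The CTCF matrix was learned from 15793 retained sites that held the CTCF core once, with 10% of equal bases mixed in. Places came from GENCODE 44 on GRCh37. Sequences on chromosome 8 are not shown, and a few results the naming rule would give are not reported here. Named are the 10 strongest members, the 6 strongest at coding promoters, with new cohesin or without cohesin, up to 3 per gene list and the 3 densest places within 100 kb. Exact permutation tests over libraries were two-sided, and functions were tested on simulated data (Python 3.11.15, numpy 2.4.6, pandas 2.3.3, scipy 1.17.1). Libraries of a replicate share a protocol per the labels (chromatin extraction, and size selection with beads or on a gel), so the replicate number was also used as a block. Replicate block p-values are in the closing section.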

Additional observations from a re-analysis of the deposited data

How the results depend on the processing

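The number of gained sites was 1530 with the lists as deposited, 375 with a −log10 q of at least 5 in both STAG2-KD lists, and 3096 with equal numbers of peaks (86248) in every list, when 670 of the 1530 members stayed gained and lost sites numbered 3231. With a replicate left out it was 13361 to 14018, counted on sites merged from the lists of the other replicate alone and not on the union of 4 lists. The promoter share (23.4%) was 16.7% with no WT peak within 1 kb, 14.1% with the stricter STAG2-KD peaks, 31.8% with 2 kb around a start and 17.6% with coding transcripts only. The share with a CTCF match (32.8%) was 12.8% at a threshold passed by 1% of windows 5 kb away, 6.99% for the core, and 22.7% to 35.2% with a replicate left out. Within 50 kb, 12.2% of coding genes had a member in place of 6.13%.

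The STAG1 and SMC1A differences between STAG2-KD and WT kept their direction under each alternative run, and were 4.83 to 23.0 and 11.8 to 11.9 points at the sites gained in a single replicate. The STAG2 difference was -5.27 to 4.34 points there, negative without replicate 2, and 6.93 points with the stricter STAG2-KD peaks. With a replicate block, the paired differences were 12.7 points for STAG1, 1.90 for STAG2 and 13.6 for SMC1A (exact sign-flip p = 0.500, 1.00 and 0.500), where 0.500 is the smallest p that 2 pairs can give. Against lost in place of weak retained sites, the STAG1 difference was 8.40 points and the SMC1A difference 6.79 points, the reverse of the sign against weak retained sites; the cause was not tested. Members rest on a median of 9 and 14 tags, and the effect of depth was not tested. With 2 libraries per group the permutation tests cannot reach 0.05.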
